A study of Mus musculus with 5 samples.

Results

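Gabpa, Atp5j, Tfam and Fastkd3 are 4 nuclear genes whose products bear on mitochondria, and they carry 7 of the 34714 transcription start sites listed in a table of chromatin accessibility. The members are every site that the table annotates to these 4 symbols, which gave 1 site for Gabpa, 1 for Atp5j, 4 for Tfam and 1 for Fastkd3, out of 33952 sites annotated to 8034 genes. The genes were chosen by their values in the same 5 libraries described here (0 at 0 h and high values later for Gabpa and Atp5j, 1 value throughout for Tfam), so those values are a description and carry no test.

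The data come from ATAC-seq, in which a transposase cuts and tags accessible DNA, on nuclei of C17.2, an immortalised mouse multipotent neural stem cell line that the labels give as CD1 x C57BL/6. All 5 libraries are of this 1 line and carry the treatment label Neural induction. The control library was taken at 0 h, and the others 0.5, 1, 1.5 and 2 h after the growth medium with 10% fetal bovine serum was exchanged for Knockout DMEM with GlutaMAX and N2 supplement, with 1 library per time. Each value is a whole number from 0 to 10, read here as how many intervals ("entries") of a library's BED file cover a site, and 0 means that none does. The number of reads behind an entry is unknown, so a value has no interval. With 1 library per time no difference between times has a replicate check, and none was tested.

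Summed over all sites the libraries held between 42527 entries (0 h) and 65824 entries (1.5 h), and 72.4 to 79.3% of genes had 1 or more entries at their site. Differences from 0 h all rest on the same 0 h library, which had the lowest sum. Of 10 neural progenitor marker genes, 5 were in the table: Hes1 held 1 entry in each library, Nes only 2 entries at 1.5 h, Notch1 1 at 0.5 and 1.5 h and 3 at 2 h, and Pax6 and Msi1 0 throughout. Sox1, Sox2, Vim, Fabp7 and Prom1 had no listed site, so the table gives little check of the cell identity.

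GABP alpha, the product of Gabpa, is the DNA-binding subunit of an ETS-family factor, also called nuclear respiratory factor 2, that recognises a GGAA core in the promoters of many genes for mitochondrial proteins. Atp5j encodes coupling factor 6, a part of the peripheral stalk of the mitochondrial ATP synthase. Tfam encodes the HMG-box protein that packages mitochondrial DNA and starts its transcription, and the human TFAM promoter is a classic target of GABP and of nuclear respiratory factor 1. Fastkd3 belongs to the FASTK family of mitochondrial RNA-binding proteins, which act on the processing and stability of mitochondrial transcripts.

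The promoter sequences below, from RefSeq on GRCm38.p6, show where the listed sites lie and which motif letters stand near the annotated starts. Each run reads 5′ to 3′ on the strand of its gene and holds 250 bases before an annotated start and 30 from the start on. In the run of the upstream Atp5j start (chr16:84835596-84835875, minus strand) the capitals mark the Gabpa site, on the left, and the Atp5j site, on the right. In the runs of Gabpa (chr16:84834874-84835153, plus strand), Tfam (chr10:71238015-71238294, minus strand) and Fastkd3 (chr13:68581960-68582239, plus strand) the capitals mark matches to the ETS core CCGGAAG, its shorter form CGGAAG or the NRF1 centre GCATGC, on either strand.
Atp5j upstream start: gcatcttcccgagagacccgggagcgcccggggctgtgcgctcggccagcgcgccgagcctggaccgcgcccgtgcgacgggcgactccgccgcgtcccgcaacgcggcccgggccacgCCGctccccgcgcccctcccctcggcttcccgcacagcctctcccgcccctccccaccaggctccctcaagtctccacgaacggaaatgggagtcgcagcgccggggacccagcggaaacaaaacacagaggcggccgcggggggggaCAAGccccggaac
Gabpa: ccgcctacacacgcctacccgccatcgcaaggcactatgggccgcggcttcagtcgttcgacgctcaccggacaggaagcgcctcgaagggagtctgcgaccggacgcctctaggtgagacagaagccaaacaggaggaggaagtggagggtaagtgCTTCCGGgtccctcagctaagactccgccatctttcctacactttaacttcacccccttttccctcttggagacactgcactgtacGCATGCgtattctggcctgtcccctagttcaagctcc
Tfam: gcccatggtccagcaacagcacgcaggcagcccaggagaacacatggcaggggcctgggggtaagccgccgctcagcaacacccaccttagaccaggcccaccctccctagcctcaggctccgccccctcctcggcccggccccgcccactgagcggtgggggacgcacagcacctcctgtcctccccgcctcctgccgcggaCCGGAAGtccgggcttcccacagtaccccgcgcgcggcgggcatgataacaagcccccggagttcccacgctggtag
Fastkd3: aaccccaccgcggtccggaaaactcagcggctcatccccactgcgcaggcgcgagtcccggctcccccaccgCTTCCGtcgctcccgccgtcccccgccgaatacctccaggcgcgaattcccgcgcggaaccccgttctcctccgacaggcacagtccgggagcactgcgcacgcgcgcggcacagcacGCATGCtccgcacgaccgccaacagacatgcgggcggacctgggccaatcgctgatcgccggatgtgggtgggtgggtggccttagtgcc

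The listed Gabpa and Atp5j sites both fall in the promoter window of the upstream Atp5j start. The Atp5j site (chromosome 16, 84835605 to 84835608, minus strand, ENSMUSG00000022890) lies 17 to 20 bases downstream of that start, counting the start base as 0. The Gabpa site (84835754 to 84835756, plus strand, ENSMUSG00000008976) begins 149 bp to its right, 129 to 131 bases upstream of the same start, so the sites face away from each other. RefSeq also places a Gabpa start (84835124) and a downstream Atp5j start (84834976) back to back, 148 bp apart, and the listed Gabpa site lies 630 to 632 bases inside Gabpa from that start. As annotated genes, Gabpa (84834891 to 84863783) and Atp5j (84827871 to 84835857) overlap by 967 bp, and both sites lie in the overlap. The annotated back-to-back start pair has no listed site of its own, so the values describe the region of the upstream Atp5j start.

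**Figure D1:**
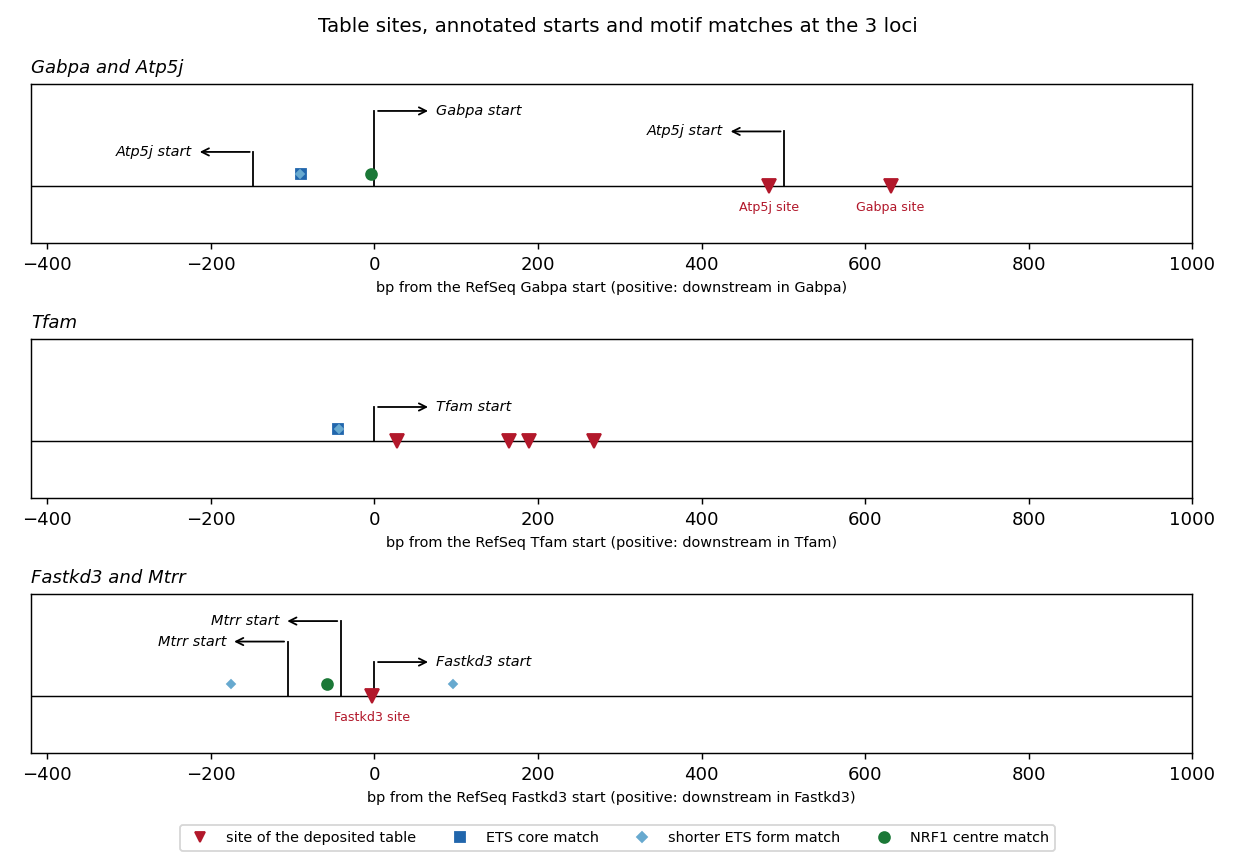
Positions of the listed sites (red triangles), the RefSeq starts (arrows in the direction of transcription) and the motif matches at the 3 loci, in bp from the start of Gabpa, Tfam or Fastkd3. The Gabpa and Atp5j sites lie at the upstream Atp5j start, 481 to 632 bases from the Gabpa start, while the 4 Tfam sites lie 24 to 271 bases downstream of the Tfam start and the Fastkd3 site 2 to 4 bases upstream of the Fastkd3 start. The starts are those of the promoter windows, and the annotated genes Gabpa, Tfam and Fastkd3 each begin further upstream.

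In the libraries of 0, 0.5, 1, 1.5 and 2 h, in that order, the Gabpa site held 0, 5, 4, 5 and 5 entries. The Atp5j site held 0, 5, 4, 5 and 5 entries too. The 0 h library was low and the 4 later libraries were high at both sites, and the values of the sites were equal in all 5 libraries, so they count as 1 region. The value at 0 h was 0, so the difference in entries has no fold that is free of a pseudocount, and an uncovered site is not shown to be closed. The 0 h library had the lowest sum of entries, and its part in this difference was not tested.

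Each of the 4 Tfam sites held 2 entries in each of the 5 libraries. They span 240 bp on chromosome 10, at 71237773 to 71237777, 71237853 to 71237857, 71237877 to 71237882 and 71238013 to 71238020 (ENSMUSG00000003923, a gene on the minus strand). No library was high or low at any of them.

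The Fastkd3 site held 1, 3, 3, 2 and 3 entries in the same order of libraries. The 0 h library was again the lowest, by 1 or 2 entries. The site (chromosome 13, 68582206 to 68582208) is on the minus strand, opposite to Fastkd3 (ENSMUSG00000021532), and the table places its own Fastkd3 model 26 bp away. In RefSeq the site lies 2 to 4 bases upstream of the Fastkd3 start of the printed run (68582210). The annotated gene begins earlier, at 68582167, so the site lies 39 bp inside it. The site is also 37 to 39 bases upstream of a start of Mtrr, the gene of methionine synthase reductase. Mtrr is on the minus strand, and its annotated gene overlaps that of Fastkd3 by 3 bp. Mtrr has no listed site, so the value cannot be assigned to either gene alone.

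**Figure D2:**
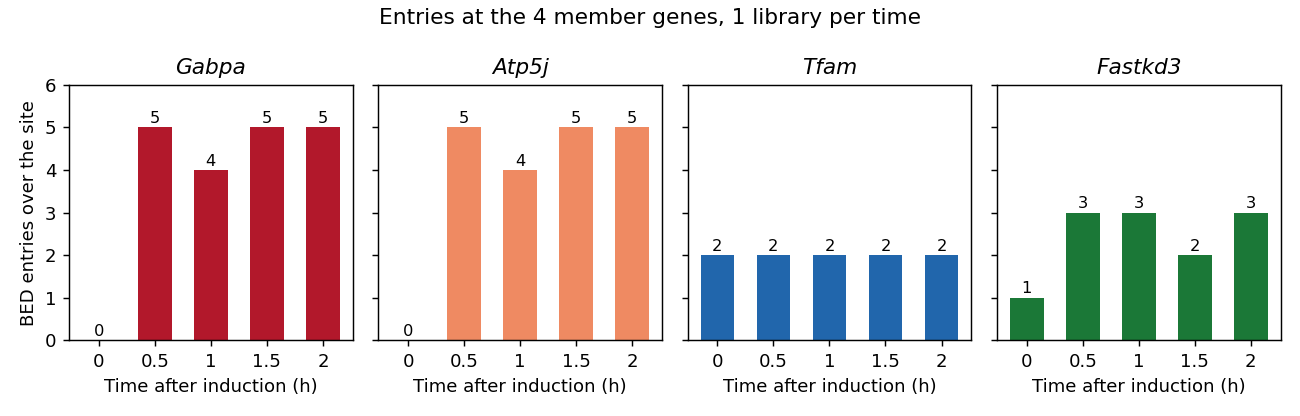
Entries over the site of each gene (bar height, with the value above it) at each time after induction (h), 1 library per bar and no error bars, as there are no replicates. Gabpa and Atp5j are at 0 entries at 0 h and at 4 or 5 later, Tfam is at 2 in each library, and Fastkd3 lies at 1 at 0 h and at 2 or 3 later.

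To set these values among all genes, each gene was represented by the site with its highest mean over the 5 libraries. A value of 5 was high in these libraries. At 0.5 h the 5 entries of Gabpa and Atp5j lay above those of 94% of genes, and 1.76% of genes had more. With 4 entries at 1 h, 87.6% of genes had fewer, and the shares for 1.5 and 2 h were 93.7 and 96.1%. The 2 entries of Tfam were the value of 26.6% of genes at 0 h and of 31.2% at 2 h. The Fastkd3 value of 1 entry at 0 h was exceeded by 60.8% of genes, its 3 entries at 0.5, 1 and 2 h by 18, 12.4 and 13.6%, and its 2 entries at 1.5 h by 41.4%.

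**Figure D3:**
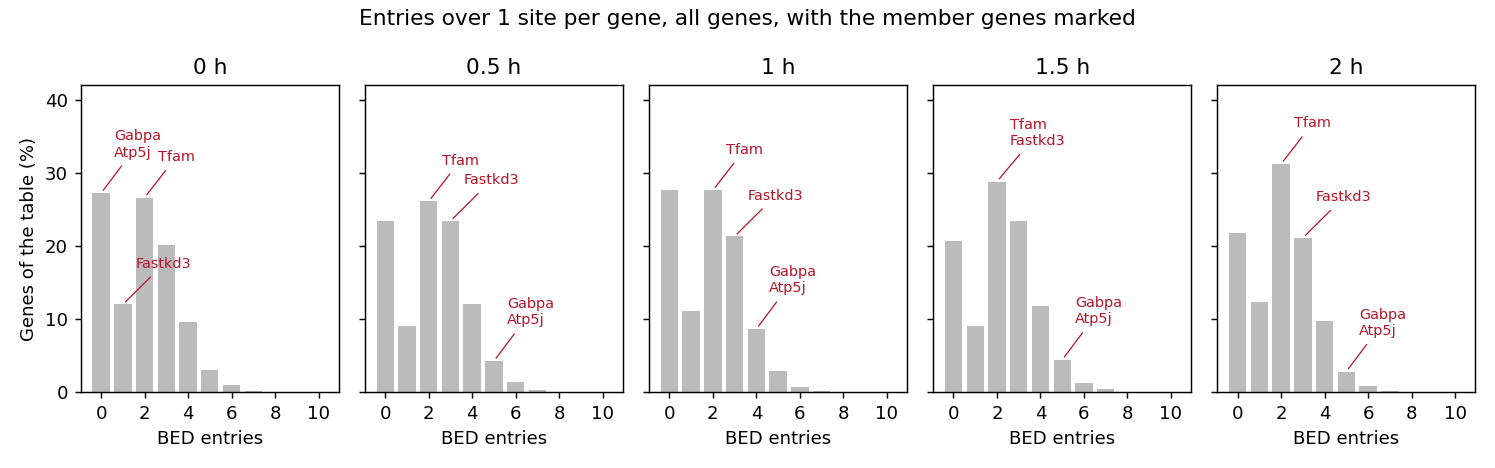
Share of the 8034 genes (%) at each number of entries in each library (grey bars), with the bars that hold Gabpa, Atp5j, Tfam and Fastkd3 named in red. Gabpa and Atp5j sit among the 27.2% of genes at 0 entries at 0 h and in the sparse right part of the distribution at the 4 later times, and Tfam is at 2 entries in each.

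Genes with 0 entries at 0 h and 1 or more at a later time are called gained here. Gabpa and Atp5j were gained at all 4 later times, when 4.8, 2.8, 7.06 and 6.6% of all genes were gained, in order of time. Counted over sites, of which Gabpa and Atp5j have 1 each, the gained shares were 12, 6.65, 19.7 and 18.9%, and with covered set at 2 or more entries they were 10.3, 7.26, 13 and 11.2% of genes. By the main definition only the 2187 genes at 0 entries at 0 h could be gained. Of these genes, 17.6, 10.3, 25.9 and 24.2% were gained at the 4 times in order. As the members were chosen with these values in view, the shares are given for reference only. Of all genes, 2.39% (192 genes, all of them among those 2187) had 0 entries at 0 h and 1 or more at each later time. Only 7 genes (0.0871%) had 0 at 0 h and 4 or more at each later time, and Gabpa and Atp5j were a pair of these. The other 5 were Agbl5, a tubulin deglutamylase, Atp8b2, a lipid flippase, Nek6, a mitotic kinase, Rev3l, a translesion DNA polymerase, and Wwc2. The threshold of 4 was chosen after the values were seen. Both of these patterns were counted at 1 site per gene, that with the highest mean. A lower site of a gene with several sites does not enter them, and no share by site is given for them.

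Gained genes mostly held low values. Of the 386 genes gained at 0.5 h, 115 held 1 entry and 120 held 2, and 22 (5.7%) held 5 or more, the class of Gabpa and Atp5j. At 1 h, 17 of 225 gained genes (7.56%) held 4 or more. At 1.5 h 39 of 567 (6.88%) and at 2 h 32 of 530 (6.04%) held 5 or more, while the median gained gene held 2 entries at each time. Seen from the later value, 342 genes held 5 entries at 0.5 h, and 17 of them (4.97%) had been at 0 at 0 h, where their median was 4. Of the 694 genes with 4 entries at 1 h 2.16% had been at 0, of the 356 with 5 at 1.5 h 6.46%, and of the 227 with 5 at 2 h 10.1%.

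**Figure D4:**
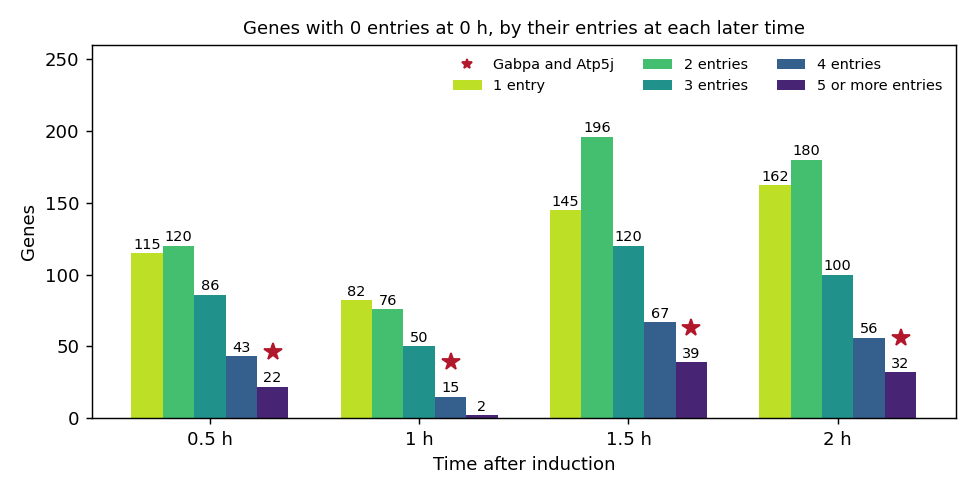
Number of genes with 0 entries at 0 h (vertical axis), by the number of entries at each later time (colour), with a star over the bar that holds Gabpa and Atp5j. At 0.5, 1.5 and 2 h they sit in the class of 5 or more entries, with 22, 39 and 32 genes, and at 1 h in that of 4 entries, with 15 genes.

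The 1 h value of Gabpa and Atp5j was 1 entry below those at 0.5 and 1.5 h. Over all genes, 27.8% of all genes had fewer entries at 1 h than at 0.5 h and 13.2% had more, and 30.6% had more at 1.5 h than at 1 h. Of the 342 genes with 5 entries at 0.5 h, 117 held 4 at 1 h and 242 held fewer than 5. The 1 h library also had fewer entries in sum than those of 0.5, 1.5 and 2 h. Its part in the 1 h value was not tested.

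On the log2(entries + 1) scale, the difference from 0 h was 2.58 at 0.5, 1.5 and 2 h and 2.32 at 1 h for Gabpa and Atp5j, sizes set by the added 1, as the 0 h value was 0. It was 0 at each time for Tfam. For Fastkd3 it was 1.00 at 0.5, 1 and 2 h and 0.58 at 1.5 h. A difference of at least 2-fold upwards on this scale was met by Gabpa and Atp5j at all 4 times and by Fastkd3 at 0.5, 1 and 2 h. Over all genes it was met by 8.18, 4.72, 11.4 and 9.53% at the 4 times in order. With the values scaled to equal library sums, Fastkd3 was below 2-fold at 0.5 h (0.76) and 2 h (0.71), and Tfam lay between -0.42 and -0.06, the same shift as the median of genes covered in all 5 libraries.

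Tfam belonged to a common class. In all, 30.3% of genes had the same value in all 5 libraries: 1542 at 0 entries and 892 at 1 or more. Of the latter, 488 genes (6.07%) held 2 throughout, so Tfam had 487 other genes with identical values. Among the genes in the lists described here these were Tfb1m, a mitochondrial rRNA methyltransferase related to transcription factors, Trmt10c, a subunit of mitochondrial RNase P, and Creb1, a cAMP-responsive factor. Of 557 genes with 4 listed sites and an entry in any library, 302 (54.2%) had equal values at all 4 sites, as Tfam did. Of the 2138 genes with 2 entries at 0 h, 53.5% held 2 at 0.5 h and 53.3% at 2 h.

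Gabpa, Atp5j and Fastkd3 were higher at all 4 later times than at 0 h, as were 775 genes in all (9.65%), against 558 genes (6.95%) that were lower at all 4. No gene apart from Atp5j had the 5 values of Gabpa. Closest of the genes that are not members by the sum of absolute differences over the 5 libraries was Nek6, at 1 entry from it, with 0, 5, 5, 5 and 5. At 2 entries from it were Agbl5, with 0, 5, 4, 4 and 4, the forkhead factor gene Foxp4, with 0, 4, 3, 5 and 5, Lrrfip2, with 1, 4, 4, 5 and 5, Nkain2, with 0, 4, 3, 5 and 5, Wwc2, with 0, 4, 4, 5 and 4, and the zinc finger gene Zbtb1, with 0, 5, 3, 5 and 4. No other gene had the 5 values of Fastkd3, 31 differed from them by 1 entry in sum, and none of these was in the lists.

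Equal values at close sites of different genes were common. Over the table, 1264 pairs of sites of different genes lay at most 200 bp apart with an entry in any library, and 58.3% held equal values in all 5 libraries. Among 231 such pairs that faced away from each other, as the Atp5j and Gabpa sites do, the share was 54.1%. In any orientation, the sites within 200 bp belonged to 263 gene pairs, and in 66.2% of these all such site pairs were equal. For the 109 gene pairs with sites that faced away from each other the share was 60.6%. In 3 of the 109, such sites held 0 at 0 h and 1 or more at each later time. In any orientation 5 gene pairs did so, Gabpa and Atp5j among them. The other 4 had lower values: Thap4 and Atg4b, an autophagy protease gene, with 0, 3, 2, 3 and 4, Parp12 and 4930599N23Rik with 0, 3, 2, 3 and 2, Gm24109 and Arhgef11 with 0, 2, 2, 3 and 2, and Gm26777 and Galnt16 with 0, 1, 1, 2 and 1. The nearest other listed sites were far away. App, the amyloid precursor gene 337871 bp to the right of Gabpa, held 2, 6, 5, 5 and 6, and Mir155hg, 132176 bp to the left of Atp5j, held 2, 2, 2, 3 and 2.

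Among the motifs searched on both strands, the Gabpa window held the ETS core CCGGAAG, at 84835031 to 84835037, and the NRF1 centre GCATGC, at 84835117 to 84835122. Both lie between the back-to-back starts of Gabpa and Atp5j, beginning 93 and 7 bases upstream of the Gabpa start, so the window of the downstream Atp5j start holds the same matches. The annotated Gabpa gene begins further left, at 84834891, so both matches also lie inside it. The Tfam window held CCGGAAG 47 bases upstream of its start, at 71238085 to 71238091, and neither GCGCATG nor GCATGC. The annotated Tfam gene extends to 71238328 on the minus strand, so that match lies inside it. The Fastkd3 window held the shorter form CGGAAG 178 bases upstream of its start, on the opposite strand, and GCATGC 60 bases upstream. None of these motifs stood in the window of the upstream Atp5j start, where the listed Gabpa and Atp5j sites lie. Other ETS forms than CCGGAAG and CGGAAG were not searched, and the printed run of that start does hold the GGAA core, as CGGAAA. The longer NRF1 stretch was searched only as GCGCATG, which was in none of the 5 windows of the 4 genes. Forms with another base in place of its T were not searched, so a longer NRF1 site is not excluded. The printed Fastkd3 run holds such a form, GCGCACG, between its matches to CGGAAG and GCATGC. Of all 32851 RefSeq promoter windows of 300 bases, 8.86% held CCGGAAG, 16.9% CGGAAG (each CCGGAAG contains it), 3.91% GCGCATG and 7.93% GCATGC. Of the 7848 windows of genes in the accessibility table, from which the members come, the shares were higher, at 13.2, 25.4, 6.28 and 9.12%, and the median G and C content was 64.3% against 52.7% for all windows. In G and C content the upstream Atp5j window, at 77%, was above 97.6% of all windows, the Gabpa window stood at 59.3%, the Tfam window at 70.3% and the Fastkd3 window at 70.7%.

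Around Gabpa, 17 of 20 listed nuclear respiratory factors and coactivators were in the table. Gabpb1, the partner subunit of GABP alpha, held 4, 5, 3, 5 and 5 entries from 0 to 2 h and Nrf1, nuclear respiratory factor 1, held 3, 3, 2, 2 and 2, so neither had the 0 h gap of Gabpa. Gabpa was the only gained gene of this list, beside 4.8, 2.8, 7.06 and 6.6% of all genes gained at the 4 later times. Of the other listed genes, 13 were covered in all 5 libraries, so they could not be gained, and 3 held 0 entries in all 5. Ppargc1b, a PGC-1 family coactivator, held 4, 4, 1, 6 and 4, and the nuclear receptor gene Ppara 3, 4, 1, 1 and 1. Of the 17 genes, 7 were above and 2 below their 0 h value at 0.5 h, when 28.1% of all genes had more and 15.6% fewer. The counts were 5 and 6 at 1 h, beside 20.6% and 22% of all genes, 9 and 3 at 1.5 h, beside 31.3% and 17.9%, and 6 and 3 at 2 h, beside 25.7% and 22.9%. The median log2 ratio was 0.26 at 1.5 h and 0 at the other times, and that of all genes was 0 at each time.

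Of 27 ETS factor genes, 14 were in the table. At 0.5, 1, 1.5 and 2 h, 7, 5, 7 and 8 of them were above their 0 h value and 2, 2, 2 and 3 below it, with medians of 0.21, 0, 0.21 and 0.42. Gained were Gabpa, Elk3, with 0, 1, 0, 0 and 1, and Elf4, with 0, 0, 0, 3 and 0. Gabpa alone of these was covered at all 4 later times. By time, 2, 1, 2 and 2 of the 14 were gained, beside 4.8, 2.8, 7.06 and 6.6% of all genes. Of the 14, 9 were covered in all 5 libraries and could not be gained, and 2 held 0 in all 5. Erf, an ETS repressor, held 6, 4, 1, 4 and 1. Of all genes, 28.1, 20.6, 31.3 and 25.7% were above and 15.6, 22, 17.9 and 22.9% below their 0 h value, with a median of 0. With 14 genes, no test and Gabpa among them, nothing particular to the family is read from this.

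Around Atp5j, 8 of 25 genes for ATP synthase subunits and assembly were in the table. Atp5j was the only one at 0 entries in any library. The alpha subunit gene Atp5a1 held 2, 3, 3, 4 and 2 entries, the c-ring gene Atp5g3 4, 2, 3, 2 and 3, and the stalk gene Atp5o 3 in each library. The assembly factor genes Atpaf2, with 2, 4, 2, 4 and 4, and Tmem70, with 2, 3, 3, 3 and 3, had their lowest value at 0 h, which Atpaf2 also held at 1 h. At 0.5, 1, 1.5 and 2 h, 5, 4, 5 and 3 of the 8 were above their 0 h value and 1, 1, 2 and 1 below it, with medians of 0.42, 0.21, 0.42 and 0 beside 0 for all genes. Over all genes 28.1, 20.6, 31.3 and 25.7% were above and 15.6, 22, 17.9 and 22.9% below. Atp5j is among the 8, and nothing particular to the list is read from these counts.

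Around Tfam, 11 of 32 genes of mitochondrial transcription, RNA processing and the nucleoid were in the table, and 9 of them were covered in all 5 libraries. The median was 0 at each time. At the 4 later times in order, 3, 3, 2 and 0 genes were above their 0 h value and 0, 3, 1 and 3 below it, of 11, beside the same shares of all genes (28.1, 20.6, 31.3 and 25.7% above, 15.6, 22, 17.9 and 22.9% below). The transcription initiation gene Tfb2m held 2, 3, 3, 3 and 1, the protease gene Lonp1 2, 3, 4, 3 and 2, and Primpol, a primase-polymerase, 3, 3, 2, 3 and 1. Mterf1a, a transcription termination factor gene, was the only gained one, with 0, 1, 0, 0 and 0, beside 4.8% of all genes gained at 0.5 h. Its close paralogue Mterf1b was at 0 throughout. Of the 7 FASTK family genes only Fastkd3 and Tbrg4 were in the table, and Tbrg4 held 3, 3, 3, 3 and 2, without the low 0 h value of Fastkd3.

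**Figure D5:**
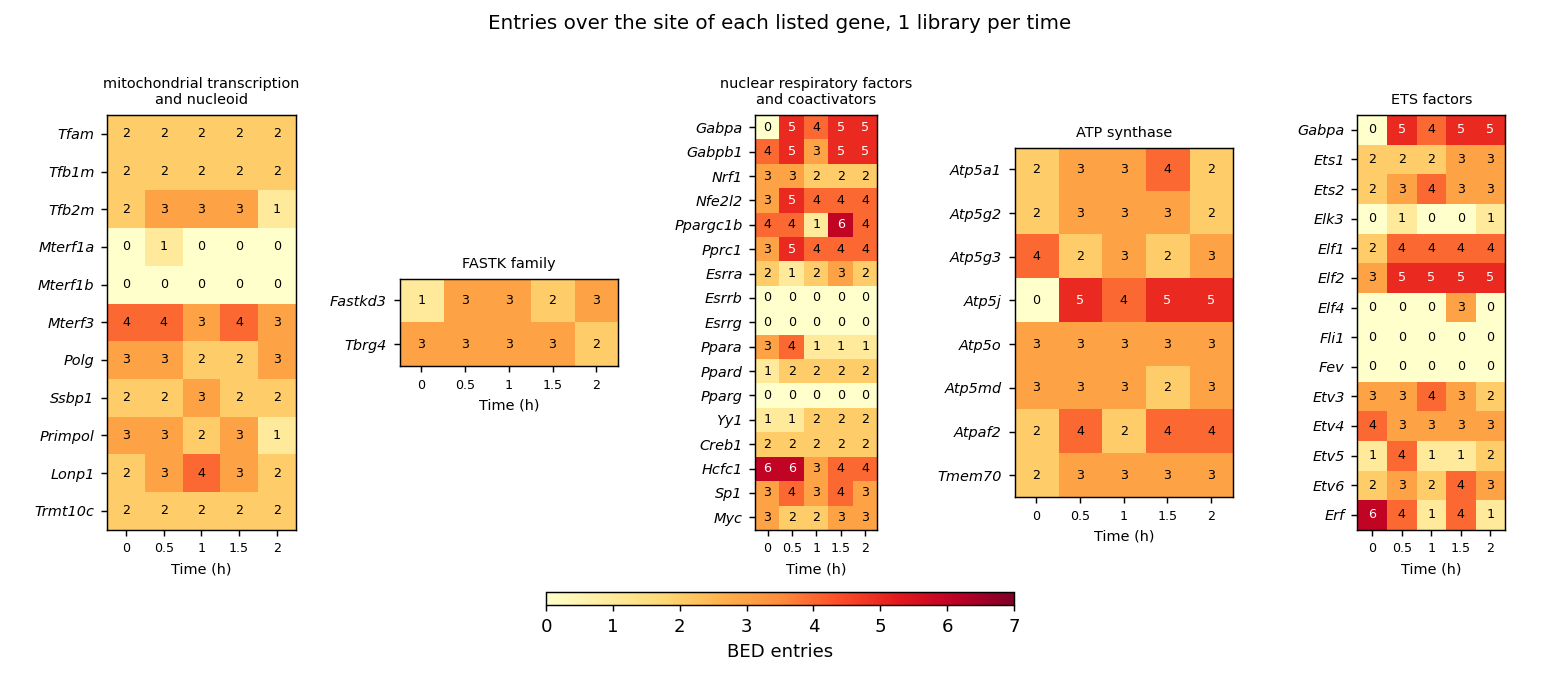
Entries (number and colour, 0 to 7) over the site of each gene of the 5 lists found in the table (vertical) in each library by time (horizontal, h), 1 library per time. Gabpa and Atp5j are the genes at 0 entries at 0 h and at 4 or 5 in all later libraries, while Tfam, Tfb1m and Trmt10c hold 2 throughout.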

How the data were processed

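The submitters' processing notes name Bowtie2, MACS2 and deepTools and the builds GRCm38 and mm10, with no version, setting or order. No source used here gives the read shift for the transposase cut, the treatment of duplicates, the peak threshold or the origin of the site list. Per the file headers, the authors' table has 1 column per library, each named after a BED file, with no normalisation stated. The deposited values are small whole numbers whose unit no source states; they were read as entries over a site, not as counts of reads or signal, and no count model was used. Columns were matched to samples by title.

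Genes were represented by their site with the highest mean, and log2 ratios used a pseudocount of 1. Covered meant 1 or more entries. Motifs were searched in the RefSeq promoter table (GRCm38.p6, C57BL/6J, a reference and not these cells' own DNA), in which all 4 genes were found. The GCATGC motif was added after seeing the data. Members and gene lists were chosen with earlier results of these data known. Named genes were the members, those nearest to Gabpa in the 5 values (1 of which is not reported here), and, within lists, gained or lost genes, genes identical to Tfam and the 3 largest log2 ratios; Gabpb1, Nrf1, Atp5o, Tmem70, Tfb2m, Mterf1b Agbl5, Atp8b2, Rev3l, the neighbouring gene pairs and the marker genes were added outside that rule, with their values already seen. Counting was checked on simulated tables. Python 3.11.15, pandas 2.3.3 and numpy 2.4.6 were used.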

Additional observations from a re-analysis of the deposited data

How the results depend on the processing

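Of 93 recomputed main values, 53 stayed within the limits set (1.5 times for a share, 0.1 for a log2 ratio), 40 moved and 0 changed sign. The Gabpa values hold for Atp5j. With a pseudocount of 0.5 the log2 ratio of Gabpa was 3.46 at 0.5, 1.5 and 2 h and 3.17 at 1 h, and that of Fastkd3 1.22 at 0.5, 1 and 2 h and 0.74 at 1.5 h. With values scaled to equal library sums, Gabpa was at 2.53 at 1 h, 2.35 at 1.5 h and 2.47 at 2 h, Fastkd3 at 0.76, 0.22 and 0.71 at 0.5, 1.5 and 2 h, and Tfam at -0.29, -0.42 and -0.33. This scaling moved the median of all genes to -0.17 at 1.5 h and -0.25 at 2 h. The share of genes at least 2-fold higher became 4.27, 5.68 and 5.35% at 0.5, 1.5 and 2 h. By sums over all sites of a gene it was 14.4, 7.83, 20.2 and 17.4% at 0.5, 1, 1.5 and 2 h, and counted by site 15, 8.27, 23.7 and 21.8%. The gained share counted by site was 12, 6.65, 19.7 and 18.9%. With covered set at 2 or more entries it was 10.3, 7.26, 13 and 11.2%, and among genes at or above the median mean 2.64, 2.66 and 2.64% at 0.5, 1.5 and 2 h. Within 500 bp, 38% of neighbouring sites of different genes were equal. For the lists, 21 of 40 recomputed values were equal and none changed sign. The cause of these shifts was not tested. With 1 library per time, no library could be left out, and the unknown read depth limits every value.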

Other observations

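Across the table, the share of promoter windows with the ETS core CCGGAAG differed between coverage classes. The core was in 16.2% of 5548 RefSeq windows of genes covered in all 5 libraries and in 5.51% of 1324 windows of genes at 0 entries in all 5. In the class of Gabpa and Atp5j, with 0 entries at 0 h and 1 or more at all later times, it was in 7.89% of 190 windows. The shorter form CGGAAG was in 29.5, 13.2 and 24.2% of the same windows. Their median G and C content was 64.7, 62 and 65.3%. Windows were matched by symbol, for 4238, 985 and 141 genes, so a window need not hold the site of its gene. The windows of Gabpa and of the downstream Atp5j start do not hold the listed sites. Both count the same CCGGAAG, and they are among the 15 windows with the core in their class. These shares are descriptions, and whether the motif bears on coverage was not tested.

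The strand of a listed site did not always match its gene. Of the 7 sites, 1 of the 4 Tfam sites and the Fastkd3 site were on the strand opposite to their gene, and the Fastkd3 site was on that of Mtrr.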
